A study of Mus musculus with 12 samples.

Results

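The interleukin-10 receptor pathway was described here by 6 genes, picked by name out of 33250 gene symbols: the receptor chains Il10ra and Il10rb, the receptor-bound kinases Jak1 and Tyk2, the transcription factor Stat3 and the feedback inhibitor Socs3. All 6 were in the table and all 6 passed the filter on low counts. Il10ra heads the set because an earlier fit of the same genotype contrast called it, so its genotype difference is a description here and not a test. The other 5 genes were taken for their known part in the pathway. RNA was read from whole hippocampus of male mice, by label 6 wild type (WT) and 6 conditional knockout (cKO). In the cKO design, Cre recombinase removes the miR379-410 microRNA cluster in Emx1-positive cells. Emx1 is active in precursors of cortical and hippocampal excitatory neurons and of part of the local glia, so cells of other origin, such as microglia and vessel cells, keep the cluster. The sources used here do not give age, strain, or whether the WT animals carry Cre or floxed alleles. The question put to these genes was how their transcripts stood in the hippocampus of animals labelled WT and cKO.

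Interleukin-10 is a cytokine that restrains inflammation. It binds Il10ra, which pairs with Il10rb, a chain shared with other cytokine receptors. Jak1 sits on Il10ra and Tyk2 on Il10rb, and together they lead to phosphorylation of Stat3, which enters the nucleus and switches on Socs3 and other genes that damp cytokine signalling. In brain, Il10ra is known chiefly from microglia, resident macrophages that arise outside the Emx1 lineage, while Il10rb, Jak1, Tyk2 and Stat3 are found in many cell types.

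Since the animals differ in a microRNA cluster, the sequences that could tie its members to the pathway are shown first. The RefSeq table (GRCm38.p6) held 69 mature microRNAs with 63 distinct seeds (bases 2 to 8) between positions 109709060 and 109743795 of chromosome 12, the span from Mir379 to Mir410. It held only the 5p form of miR-376c, miR-487b and miR-539, and only the 3p form of miR-485. Matches to their opposite forms were not counted. The longest annotated 3′ UTR of a coding Il10ra transcript (1693 bases, GENCODE M21, GRCm38) held 10 matches to these seeds. The median was 7 among 2368 tested genes whose 3′ UTR was within 20% of that length, and 18.4% of them had as many or more, so this number of matches is common. Stat3 had 19 matches in 3701 bases against a median of 15, Socs3 had 7 against 6, Il10rb had 3 against 3, Jak1 had 3 against 4, and Tyk2 had 1 against 4. The microRNA with the most matches in Il10ra was miR-377-3p, at 3 places, and miR-543-3p matched at the single place where the seed match was followed by an A. Both are shown 5′ to 3′ with the seed in capitals, each with Il10ra sites from the minus strand of chromosome 9, in which capitals mark the seed match:
mmu-miR-377-3p: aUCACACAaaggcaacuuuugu
Il10ra, chr9:45254656-45254677: acctccgtgttcagcTGTGTGA
Il10ra, chr9:45254256-45254277: tttccaaatacagacTGTGTGA
Il10ra, chr9:45254032-45254053: tgccctgtttctagcTGTGTGA
mmu-miR-543-3p: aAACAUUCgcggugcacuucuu
Il10ra, chr9:45254583-45254604: gaagtccctcatgctGAATGTT
A seed match is a description of letters. No readout in these libraries shows whether a microRNA acts there, and 89.3% of 15274 genes with a 3′ UTR of at least 50 bases held at least 1 match.

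Because Socs3 is a known Stat3 target, the promoters were searched for TTCNNNGAA, the core letters of STAT binding sites, which reads as the same pattern on either strand. In the window from 250 bases before to 50 bases after the RefSeq start (GRCm38.p6, minus strand of chromosome 11), Socs3 had 1 match, beginning 154 bases before the start, shown with the match in capitals:
Socs3, chr11:117969502-117969530: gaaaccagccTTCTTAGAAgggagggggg
Of 32851 promoter windows of this length, 8.3% held the motif. The windows of Jak1, Tyk2 and Stat3 held 0 matches. This too is a description of letters, with no readout of binding in these libraries.

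Libraries held 42360558 to 51095758 counts, and every pair within a genotype differed by more than counting noise (the smallest chi-square, divided by its degrees of freedom, was 7.93). The tissue label fits its markers, with 12 of 12 hippocampal neuron markers detected at a summed 6954 to 8093 CPM per library (counts per 1000000 counts of the library, after TMM scaling). The library labelled cKO 1 stood with WT at B830012L14Rik, a non-coding RNA next to the cluster: 0.788 CPM, against 0.310 to 0.865 CPM in WT and 17.4 to 25.8 CPM in cKO 2 to 6. Genotype is taken from the labels here, and whether the cluster was lost in the animal of this library was not tested. WT 2, WT 3 and cKO 4 held little choroid plexus RNA, with a geometric mean of 8 markers of 1.69 to 7.82 CPM against 27.0 to 86.6 CPM in the other 9 libraries. Results are given with and without these libraries where they matter.

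Il10ra (chromosome 9, 45253837 to 45269149, minus strand, GRCm38) was higher in every cKO animal than in every WT animal. WT 1 to 6 gave 3.57, 3.49, 3.59, 3.48, 3.77 and 3.55 CPM, from 175, 146, 164, 176, 183 and 174 counts. cKO 1 to 6 gave 4.58, 4.68, 4.73, 4.75, 4.74 and 4.68 CPM, from 215, 211, 241, 225, 213 and 243 counts. The groups did not overlap, and the lowest cKO library was the one labelled cKO 1, which still lay above all WT libraries. The WT mean was 3.57 ± 0.105 CPM and the cKO mean 4.70 ± 0.0640 CPM (SD over 6 animals). They were 1.31-fold apart, a log2 fold change of 0.39 ± 0.05 (SE, which is below counting error and so understates the uncertainty). These are the values that put the gene in the set: its edgeR adjusted p of 0.0409 was 1 of 2 under 0.05, and the other was B830012L14Rik (0.0343). The nearest genes outside, all at 0.115, were Gm37411, Aoc3 and the smooth muscle markers Lmod1 and Myl9. Over all 19325 genes tested, 0.0103% were called, and the groups did not overlap in 0.404% (0.181% higher and 0.223% lower in cKO). Leaving out the library labelled cKO 1 gave a log2 fold change of 0.39 and an edgeR adjusted p of 0.0430, in a fit that called 0.0308% of genes, while omitting any other single library gave 0.0541 to 0.220, and 0.398 without WT 2, WT 3 and cKO 4. It was 0.110 with no low-count filter (0.00301% called) and 0.0469 among genes of at least 1 CPM in 6 libraries (0.00642% called).

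**Figure D1:**
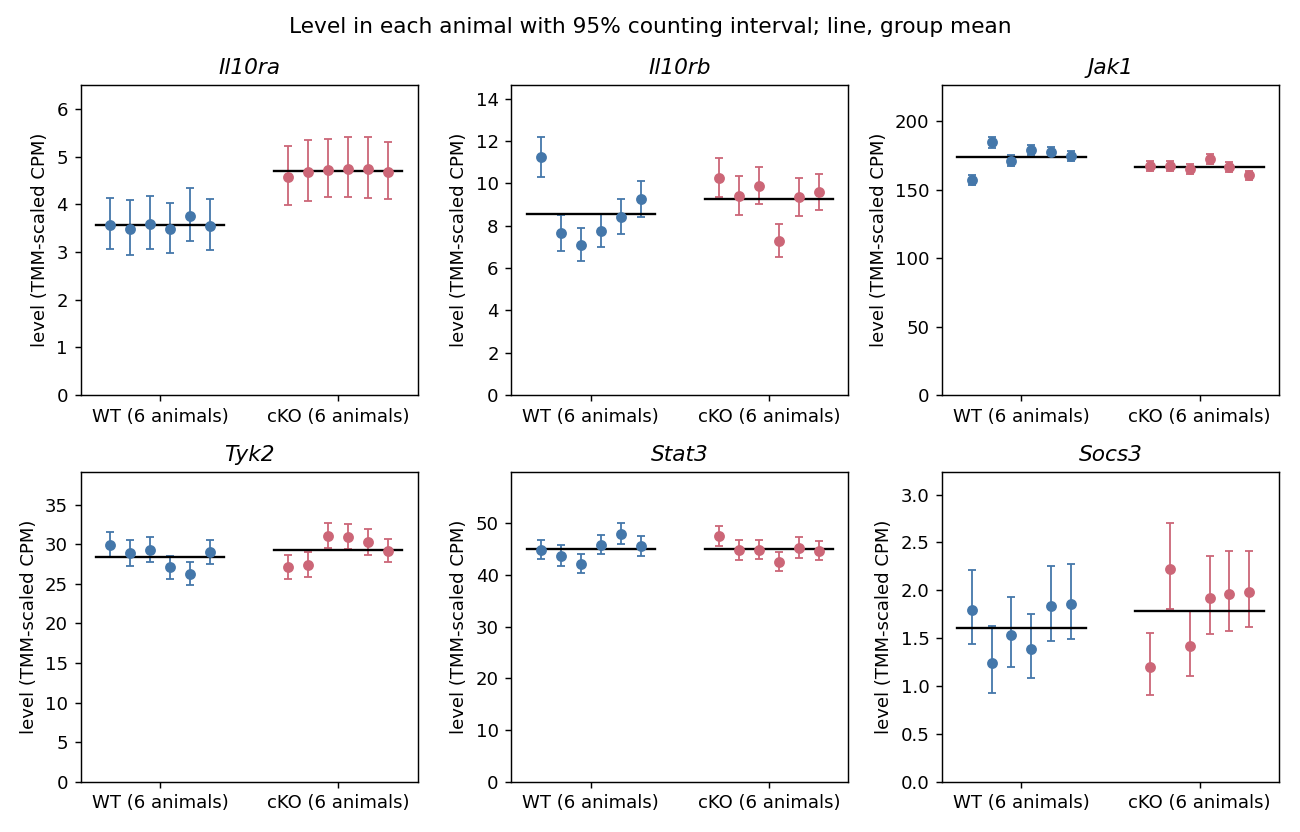
Level of each of the 6 genes (TMM-scaled CPM, y axis from 0) in 6 WT and 6 cKO animals, ordered by animal number within a genotype. Points are animals, vertical bars are 95% counting intervals and horizontal lines are group means; only in the Il10ra panel do the genotypes separate (3.48 to 3.77 against 4.58 to 4.75 CPM).

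The animals of a genotype agreed more closely at Il10ra than counting alone would give. At these counts, counting noise gives an SD of 0.275 CPM in WT and 0.314 CPM in cKO, while the observed SDs were 0.105 and 0.0640 CPM. The variance within a genotype, divided by that expected from counting, was 0.149 in WT and 0.0411 in cKO, and 0.0951 over both. Among 883 tested genes with a mean count within 20% of that of Il10ra the median ratio was 3.07, and 1 of them, Il10ra itself, was at or below its value. It was also the lowest of all 19325 genes tested. The quasi-likelihood test of edgeR takes its error partly from this spread and partly from that of other genes. The small p of Il10ra and its small spread are therefore not separate facts. The SE of its log2 fold change, 0.05, comes from the same test and is smaller than counting error alone would give. It is therefore not the full uncertainty between animals. Other tools, run on the same values that chose the gene and so no further support for it, differed in whether they called it. The adjusted p was 0.0519 with limma-voom and 0.0952 with edgeR's robust shrinkage. It was 0.00253 with edgeR's likelihood ratio test, which called 0.217% of genes, and 0.000478 with DESeq2, which called 0.393%. Summed over animals, 1348 counts in cKO stood against 1018 in WT, a ratio of 1.31 after scaling, with an exact 95% interval of 1.21 to 1.43 that covers counting error only.

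**Figure D2:**
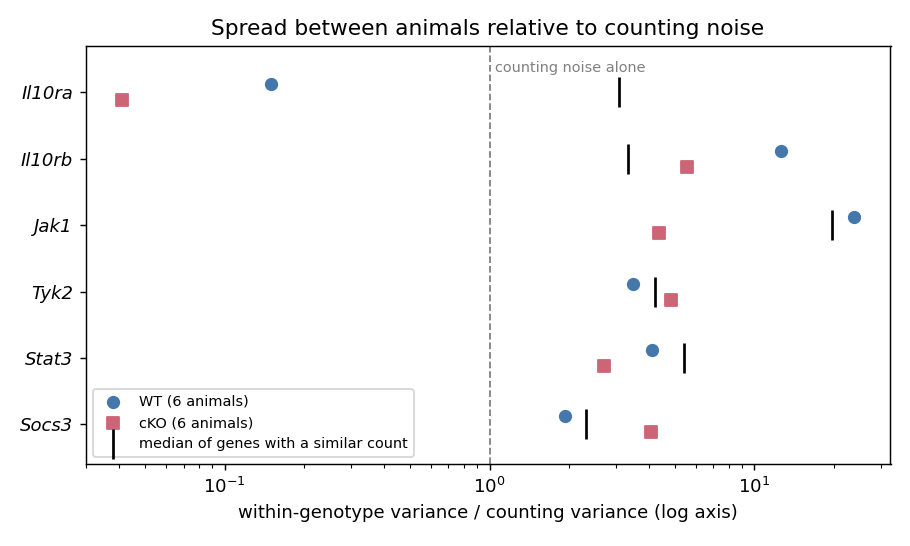
Within-genotype variance of each gene divided by the variance expected from counting (x axis, log scale; dashed line at 1), for 6 WT and 6 cKO animals; black ticks are the median over tested genes with a mean count within 20%. Il10ra lies below 1 in both genotypes (0.149 and 0.0411), and the other 5 genes lie above 1.

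Il10rb (chromosome 16, 91406164 to 91425834, plus strand), the shared second chain, spread widely within each genotype. In WT 1 to 6 its level was 11.2, 7.64, 7.08, 7.73, 8.42 and 9.24 CPM, and in cKO 1 to 6 it was 10.2, 9.39, 9.88, 7.26, 9.33 and 9.57 CPM. The groups overlapped throughout, with the highest level in WT 1 and the 3 lowest in WT 3, cKO 4 and WT 2. The difference between the WT mean, 8.56 ± 1.51 CPM, and the cKO mean, 9.28 ± 1.04 CPM (SD over 6 animals), was within this spread. The log2 fold change was 0.12 ± 0.11 (SE, edgeR adjusted p = 0.799). It depended on single libraries, from 0.06 without WT 3 (adjusted p = 0.941) to 0.20 without WT 1 (0.339), and passed in none of these fits. The within-genotype variance was 9.09 times counting noise, above the median of 3.32 for genes of similar count. A coding gene model on the same strand, Gm21970, overlaps 13288 bases of the locus and was not analysed here, so the counts of Il10rb may be shared with it.

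Il10rb followed the choroid plexus RNA in the library. It read 7.08 to 7.64 CPM in the 3 libraries low in choroid plexus markers and 7.73 to 11.2 CPM in the other 9. Across those 9 libraries its log2 level and that of the choroid plexus markers had a Pearson r of 0.928 (exact permutation p = 0.000733, adjusted over the 6 genes 0.00440) and a Spearman rho of 0.80 (exact permutation p = 0.0138, adjusted 0.0415). Jak1 ran the other way, with r = -0.857 (exact permutation p = 0.00351, adjusted 0.0105) and rho = -0.867 (exact permutation p = 0.00451, adjusted 0.0271). Without WT 1 and WT 4, the libraries farthest from the median in choroid plexus level, r was 0.737 for Il10rb and -0.657 for Jak1 over 7 libraries (exact permutation p = 0.0556 and 0.111), so the relations rest on those libraries in part. Tyk2, Stat3, Socs3 and Il10ra gave r of 0.709, -0.455, 0.0958 and 0.194 (exact permutation, adjusted p of 0.0629 to 0.806). Their Spearman rho was 0.683, -0.517, -0.0167 and 0.183 (exact permutation, adjusted p of 0.101 to 0.982). With both measures centred on the genotype mean (4 WT and 5 cKO libraries) and permuted within genotype, r was 0.931 for Il10rb (exact permutation p = 0.00833, adjusted 0.0250) and -0.879 for Jak1 (exact permutation p = 0.00313, adjusted 0.0188). With the choroid plexus level as a covariate, the log2 genotype difference of Il10rb was 0.07 ± 0.07 (SE, edgeR adjusted p = 0.741) and that of Il10ra was 0.39 ± 0.06 (0.0543). These relations were computed after the low libraries were known, and in bulk tissue fewer cells of a type and less RNA per cell cannot be told apart.

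**Figure D3:**
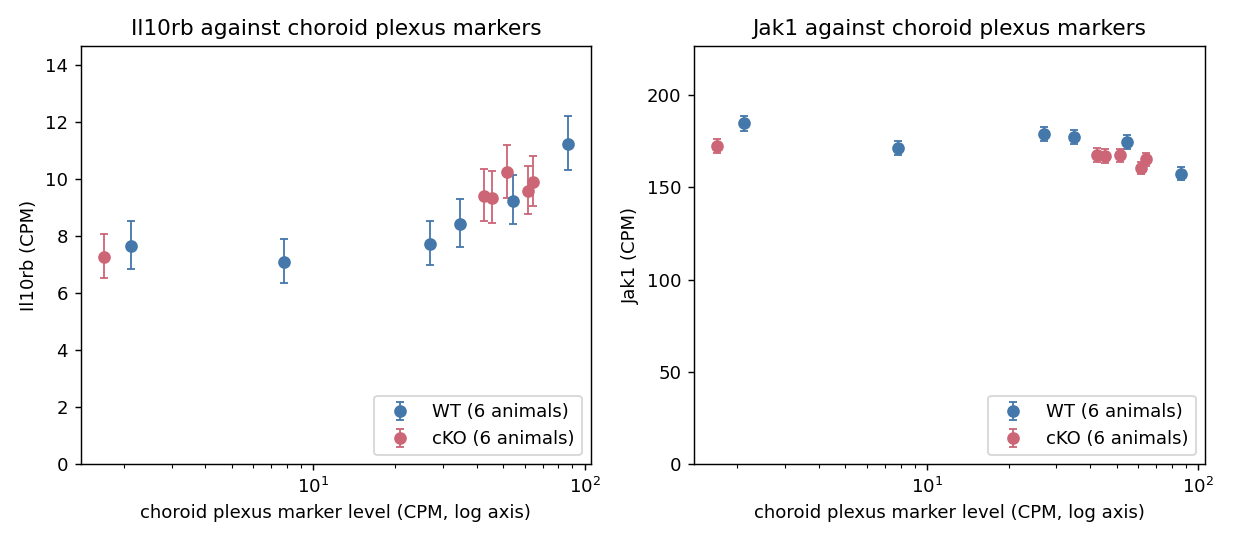
Il10rb (left) and Jak1 (right) in CPM, with 95% counting intervals, against the geometric mean CPM of 8 choroid plexus markers (log axis), 1 point per animal. In the WT library richest in choroid plexus RNA, Il10rb is highest (11.2 CPM) and Jak1 lowest (157 CPM).

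Jak1 (chromosome 4, 101152367 to 101265282), the kinase of the Il10ra chain and of many other cytokine receptors, did not pass the test. The level in WT 1 to 6 was 157, 185, 171, 179, 178 and 175 CPM, and in cKO 1 to 6 it was 167, 167, 165, 172, 167 and 161 CPM. WT 1 lay below every cKO library, WT 3 lay inside the cKO range and the other 4 WT libraries lay above it. The log2 fold change was -0.06 ± 0.04 (SE; edgeR adjusted p = 0.611). Without WT 1 it was -0.10 ± 0.03, at an edgeR adjusted p of 0.135. Jak1 was the member whose spread differed most between genotypes, 23.7 times counting noise in WT and 4.37 times in cKO, and that difference was not tested.

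Tyk2 (chromosome 9, 21104068 to 21131243), the kinase of the Il10rb chain, read 30.0, 28.9, 29.3, 27.1, 26.3 and 29.0 CPM in WT 1 to 6 and 27.1, 27.4, 31.1, 30.9, 30.3 and 29.2 CPM in cKO 1 to 6. The groups overlapped, with 3 cKO libraries above every WT library, and the log2 fold change was 0.05 ± 0.05 (SE, edgeR adjusted p = 0.810). An annotated antisense gene, 1700084C06Rik, covers 24326 bases of the Tyk2 locus. It had 1 to 9 counts per library, against 1211 to 1582 for Tyk2.

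Stat3 (chromosome 11, 100885098 to 100939540) was the member closest to no difference, with WT at 45.0 ± 1.99 CPM and cKO at 44.9 ± 1.60 CPM (SD over 6 animals). WT 1 to 6 were at 44.9, 43.7, 42.2, 45.8, 48.0 and 45.6 CPM, and cKO 1 to 6 were at 47.5, 44.8, 44.8, 42.5, 45.3 and 44.7 CPM. Its 3 lowest libraries were WT 3, cKO 4 and WT 2, as for Il10rb, and these lay at 42.2 to 43.7 CPM against 44.6 to 48.0 CPM in the other 9. The log2 fold change was 0.00 ± 0.04 (SE, edgeR adjusted p = 0.987), with a fitted fold of 0.998. Over the 25 alternatives it lay between -0.03 and 0.02.

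Socs3 (chromosome 11, 117966079 to 117970047), the inhibitor whose transcription follows Stat3 activity, was the least abundant member and did not pass the test. From WT 1 to WT 6 the levels were 1.79, 1.24, 1.53, 1.38, 1.83 and 1.86 CPM, from 52 to 91 counts, and from cKO 1 to cKO 6 they were 1.19, 2.22, 1.41, 1.92, 1.96 and 1.98 CPM, from 56 to 103 counts. The groups overlapped, 4 cKO libraries lay above every WT library, and the library labelled cKO 1 was the lowest of all 12. The log2 fold change was 0.15 ± 0.16 (SE, edgeR adjusted p = 0.827), 0.23 without the library labelled cKO 1, 0.07 without cKO 2, 0.08 without WT 2 and 0.03 without WT 2, WT 3 and cKO 4. The ratio of summed counts was 1.10, with an exact 95% counting interval of 0.968 to 1.25.

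Compared per kilobase of annotated exon, which is the scale for setting genes side by side, the order in WT was Jak1 (24.1 ± 1.29 CPM per kb), Stat3 (4.72 ± 0.209), Tyk2 (4.14 ± 0.207), Il10rb (2.25 ± 0.395), Il10ra (1.02 ± 0.0301) and Socs3 (0.556 ± 0.0898; SD, n = 6 each). The order was the same in cKO. Neighbours in this order did not overlap between libraries, except Stat3 and Tyk2 in cKO, at 4.46 to 4.99 and 3.94 to 4.53 CPM per kb. Il10ra was at 1.02 CPM per kb in WT and 1.34 CPM per kb in cKO, and stood below Il10rb and above Socs3 in every library.

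No genotype difference passed a test in the markers of the cells in which Il10ra is known. All 18 microglial markers were detected, and their summed level was 483 to 499 CPM in WT and 460 to 508 CPM in cKO. Their geometric mean in WT was 19.8 ± 0.273 CPM, and 19.6 ± 0.875 CPM was found in cKO (SD over 6 animals). The log2 difference was -0.02, with a two-sided exact permutation p of 0.485. Of the 18 genes 6 were higher, 12 were lower and 0 passed in edgeR, with a smallest adjusted p of 0.526 and 0 at an unadjusted p under 0.05. Over all genes tested, 10325 of 19325 (53.4%) were higher. Csf1r, a growth factor receptor, was at 89.1 ± 1.26 and 87.6 ± 4.03 CPM, and C1qa, a complement protein, at 39.2 ± 3.13 and 39.7 ± 4.32 CPM (WT first, SD over 6 animals). Cx3cr1, the fractalkine receptor (log2 fold change -0.08 ± 0.04 SE), and Itgam, an integrin (-0.10 ± 0.05 SE), had the smallest p of the list.

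Since the marker level was so similar, the ratio of Il10ra to it restates the Il10ra difference. As a percentage of the microglial geometric mean it was 17.3 to 19.5% in WT and 22.3 to 25.4% in cKO, with means of 18.0 ± 0.779% and 24.1 ± 1.25% (SD, n = 6 each). The log2 difference of this ratio was 0.41, given with no test and not separate from the values that chose the gene.

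**Figure D4:**
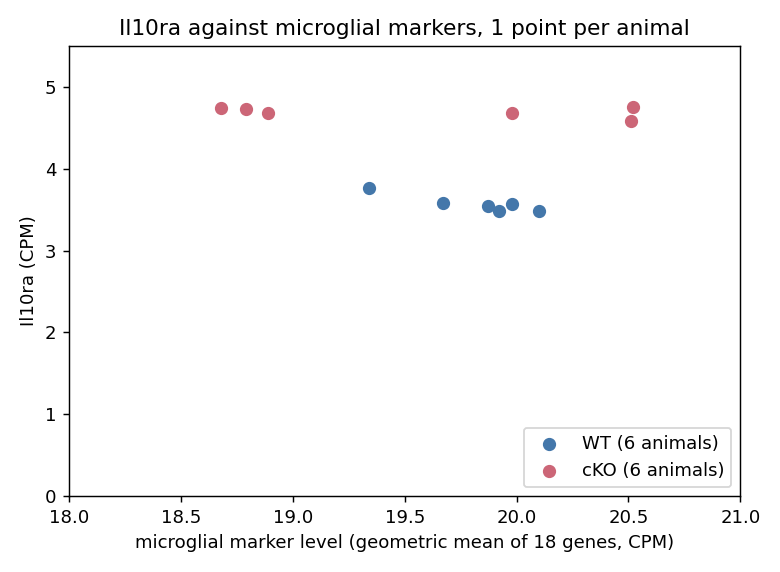
Il10ra (CPM, y axis from 0) against the geometric mean CPM of 18 microglial markers (x axis, from 18 to 21 CPM) in 6 WT and 6 cKO animals. The genotypes overlap along the marker axis (19.3 to 20.1 and 18.7 to 20.5 CPM) and separate along the Il10ra axis.

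Markers of other leukocytes were low, smooth muscle markers separated the genotypes, and several other lists leaned higher in cKO without a gene that passed. Border macrophage markers were higher in 9 of 9 genes with 0 past the threshold (median log2 fold change 0.23, against 0.01 over all genes tested), and their summed level was 24.6 to 36.1 CPM in WT and 29.3 to 38.7 CPM in cKO. Among them Stab1, a scavenger receptor, had a log2 fold change of 0.18 ± 0.09 (SE), Cd163, the haemoglobin scavenger receptor, 0.38 ± 0.18 and Cbr2 0.48 ± 0.24. Lymphocyte markers summed to 2.74 to 3.61 CPM in WT and 3.00 to 3.64 CPM in cKO, with the T cell receptor subunits Cd3e and Cd3g and the natural killer cell genes Nkg7 and Klrb1c under 0.1 CPM. Neutrophil and monocyte markers summed to 1.28 to 2.39 and 1.46 to 3.35 CPM, with Ly6g, Retnlg, Camp and Plac8 under 0.1 CPM, and the 4 of 9 that could be tested were all higher (median log2 fold change 0.57, 0 past the threshold). Endothelial markers were higher in 8 of 8 genes with 0 past the threshold (median 0.09), and summed to 218 to 240 CPM in WT and 230 to 264 CPM in cKO. Choroid plexus markers were also higher in 8 of 8 genes with 0 past the threshold (median 0.34). Their geometric means overlapped widely, at 2.12 to 86.6 CPM in WT and 1.69 to 64.3 CPM in cKO. Smooth muscle markers did not overlap between genotypes as a group, with a geometric mean of 4.54 to 7.94 CPM in WT against 9.05 to 14.1 CPM in cKO. In edgeR 0 of the 6 genes passed and 6 had an unadjusted p under 0.05, as did 9.54% of all genes tested. Taken singly, 5 of the 6 did not overlap between genotypes, against 0.404% of all genes tested. The part of macrophage, other leukocyte or vessel RNA in the Il10ra difference was not tested.

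The ligand was all but absent from the libraries. Il10 had 1 count in 1 WT library and 0 in the other 11. Il19 and Il22, relatives of interleukin-10, had at most 4 counts in any library. None of these was tested, and at this depth a difference in them was not detectable.

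Beyond the 6 members, 51 other genes of the pathway were tested and 0 passed, with 3 at an unadjusted p under 0.05 (9.54% of all genes tested were) and 0 called by DESeq2 or edgeR's likelihood ratio test. Of the 51, 35 were higher and 16 lower in cKO, and the median log2 fold change was 0.04.

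Among the other receptors of the family and the interferon receptors, Il20rb, a chain of the receptors for interleukin-20 relatives, had a log2 fold change of -0.25 ± 0.12 (SE, edgeR adjusted p = 0.540). Ifngr1, an interferon-gamma receptor chain, had 0.06 ± 0.05.

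Of 11 kinases and STATs tested, the members Jak1, Tyk2 and Stat3 among them, 7 were higher, 4 were lower and 0 passed. Stat5b, a STAT of growth hormone signalling, had a log2 fold change of 0.14 ± 0.08 (SE, edgeR adjusted p = 0.611).

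Of 16 inhibitors tested, the member Socs3 among them, 9 were higher, 7 were lower and 0 passed. Ptpn2, a phosphatase that acts on JAKs and STATs, had the smallest p of this list, with WT at 17.0 ± 0.864 CPM and cKO at 15.4 ± 0.931 CPM (SD over 6 animals; edgeR adjusted p = 0.399). Pias2 and Pias3, inhibitors that bind STATs, had log2 fold changes of -0.05 ± 0.03 and 0.07 ± 0.04 (SE).

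Genes known to respond to interleukin-10 numbered 15 tested, the member Socs3 among them, of which 0 passed. By sign 12 were higher, with a median of 0.10 on the log2 scale, beside 53.4% higher and a median of 0.01 over all genes tested. Zfp36, which destabilises cytokine messenger RNAs, stood at 4.56 ± 0.596 CPM in the WT animals and 5.35 ± 0.693 CPM in the cKO animals (SD; edgeR adjusted p = 0.523). Cd163, also a border macrophage marker, was at 1.35 ± 0.305 and 1.76 ± 0.358 CPM (0.523), and Ddit4, a stress-induced gene, at 35.6 ± 1.83 and 39.3 ± 4.71 CPM (0.538).

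Of 7 receptors of the interleukin-6 family, which also signal through Jak1 and Stat3, 5 were higher, 2 were lower and 0 passed. Cntfr, the receptor of ciliary neurotrophic factor, had a log2 fold change of 0.07 ± 0.04 (SE, edgeR adjusted p = 0.590), Il6ra 0.14 ± 0.11 and Osmr 0.11 ± 0.09.

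**Figure D5:**
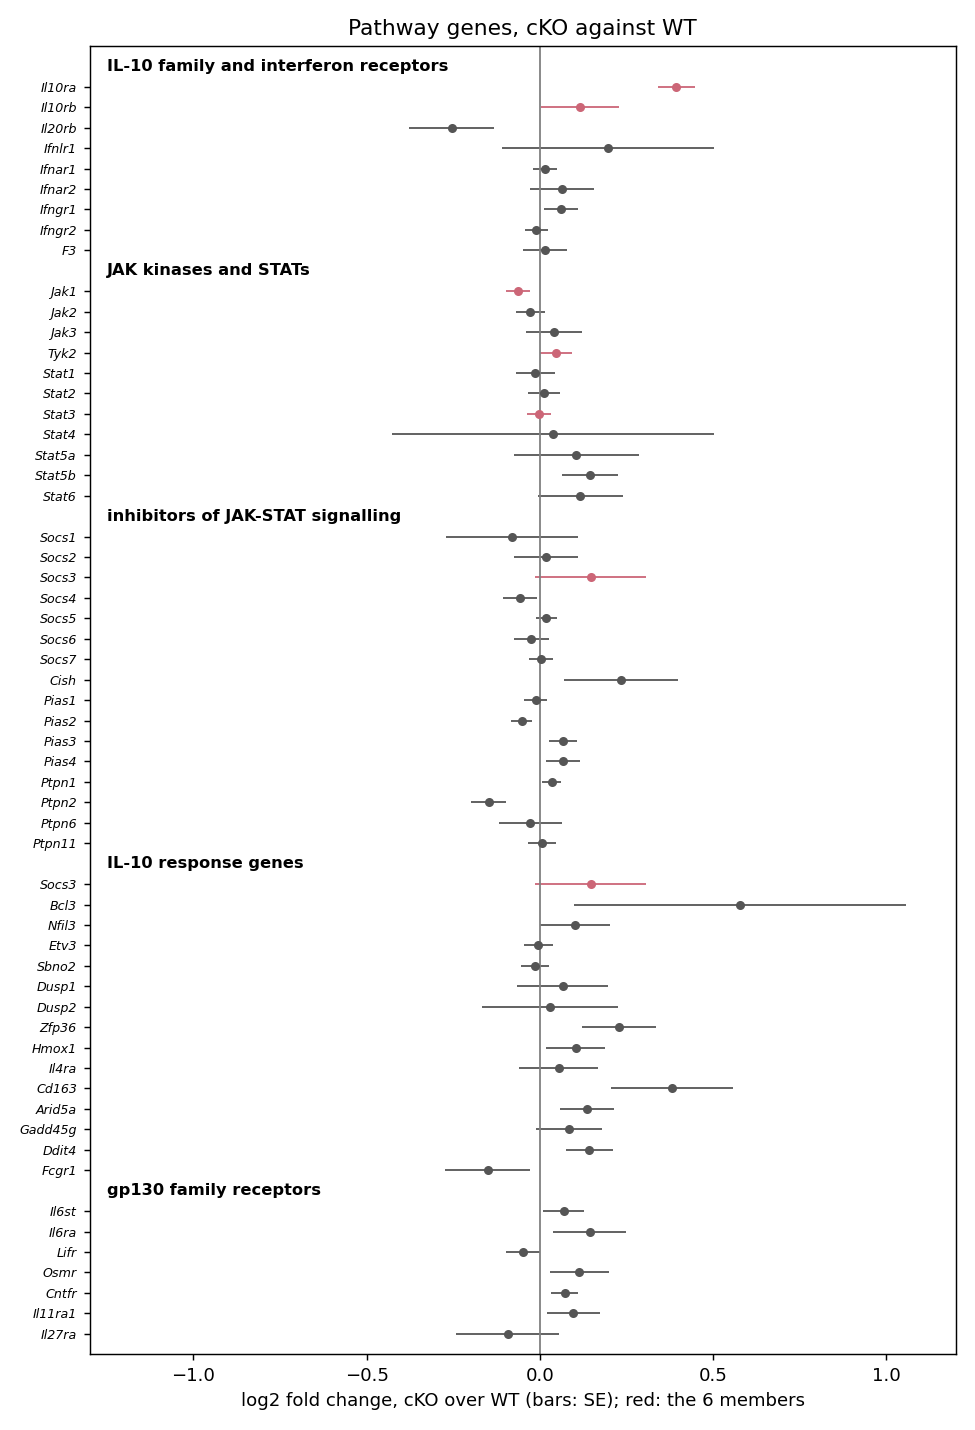
Log2 fold change of cKO over WT (x axis; bars are SE) for the tested pathway genes in 5 groups, with the 6 members in red. Il10ra lies at 0.39 and the other 5 members lie between -0.06 and 0.15.

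Il10ra was set beside its genomic neighbours. Within 100 kb, Scn4b, a sodium channel subunit, had a log2 fold change of 0.12 ± 0.19 (SE, edgeR adjusted p = 0.891) and BC049352 had -0.10 ± 0.32 (0.952). Tmprss4 and Tmprss13 had at most 4 counts in any library. Near the other members, Raver2, which shares 4 bases with Jak1, had -0.05 ± 0.06, and Stat5a, which shares 72 bases with Stat3 on the opposite strand, had 0.11 ± 0.18 (SE).

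Genes with a level pattern most like that of Il10ra were found by the root-mean-square difference of centred log2 CPM over the 12 libraries, among 15557 other genes of at least 1 CPM. They were Palld, an actin-associated scaffold (difference 0.0907), Map2k3, a kinase of the p38 pathway (0.107), Shb, an adaptor protein (0.109), and Ppp1r18, a phosphatase subunit (0.113), against a median of 0.225. Palld stood at 7.47 ± 0.400 CPM in the WT animals and 9.32 ± 0.649 CPM in the cKO animals (SD), without overlap. It did not pass over all genes (edgeR adjusted p = 0.187). Il10ra was chosen for its genotype difference, so genes picked for likeness to it tend to separate the genotypes by construction. Over all genes tested, the groups did not overlap in 0.404%. For Socs3 the closest were Gpr3 (0.147), Tmem97 (0.156), Syk (0.161) and 2410018L13Rik (0.162), against a median of 0.294.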

How the data were processed

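The table deposited by the authors gives expected counts for 33250 gene symbols in each of 12 animals, unscaled. The tools named per the submitters' processing notes are Salmon 1.3.0 with the GRCm38 build. How transcripts were summed to genes, and with which annotation and strand setting, is not given in the sources here, so reads of overlapping or near-identical genes may have been shared out. Counts were rounded to whole numbers. Genotypes were compared with edgeR 4.0.16 (R 4.3.3): TMM scaling, filterByExpr (count minimum 10, total 15), quasi-likelihood test on genotype alone, Benjamini-Hochberg adjustment over all genes tested, threshold 0.05. Coordinates and exon lengths come from GENCODE M21. Marker levels are geometric means of CPM (prior count 2), compared by an exact permutation test. P-values take animals as the samples, numbered within each genotype in the labels. In edgeR, DESeq2 and limma-voom the error of a gene comes partly from its own spread between animals and partly from that of other genes. Counting intervals and ratios use Poisson or exact binomial (Clopper-Pearson) limits at 95% and cover counting error only.

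Members and lists were chosen with earlier results of these data known. Named genes were the 6 members, ligands with a count, up to 3 genes of each list with the smallest p or, for markers, the highest level, 4 genes most like Il10ra and Socs3 in pattern, and overlapping or neighbouring genes within 100 kb of Il10ra. B830012L14Rik, Gm37411 and Aoc3 were chosen after their values were seen. DESeq2 1.42.0, limma-voom (limma 3.58.1), other scalings and filters, animal number as a block and leaving out libraries were tried. The fits were tested on simulated counts whose expected spread was never below counting noise. That test cannot show how the fits behave for a gene with a spread as small as that of Il10ra. The labels do not say whether animal numbers pair the samples. Deviations of same-numbered animals correlated between -0.43 and 0.563. These deviations also carry differences in choroid plexus RNA, so they cannot show whether same-numbered animals belong together. RefSeq promoters matched 4 of 6 members (Jak1, Tyk2, Stat3, Socs3).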

Additional observations from a re-analysis of the deposited data

Results flagged for a closer look

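Each gene and the 2 microglial measures were checked in each genotype for a library whose gap to its nearest neighbour was too large a part of the group's range by Dixon's 95% value for 6 samples. Such a library was found in 2 of the 16 groups, and chance alone would mark about 1 in 20. WT 5 was the highest WT library for Il10ra, at 3.77 CPM. The library cKO 4 was the lowest of its genotype for Il10rb, at 7.26 CPM, and was also the library lowest in choroid plexus markers.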

How the results depend on the processing

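The log2 fold change of Il10ra lay between 0.38 and 0.41 under all 25 alternatives, and 8 of them kept its adjusted p under 0.05. The adjusted p of Il10ra was above 0.05 with no low-count filter (0.39, adjusted p = 0.110), limma-voom (0.39, 0.0519) and edgeR's robust shrinkage (0.39, 0.0952). The same held with animal number as a replicate block (0.39, 0.483), without WT 2, WT 3 and cKO 4 (0.38, 0.398) and with choroid plexus level as a covariate (0.39, 0.0543). In each of these 6 settings 0 members passed. Of the 12 edgeR fits that left out 1 library, only the fit without cKO 1 kept it under 0.05 (0.0430). The others gave 0.0541 to 0.220. The number of genes called was 2 by default, 1 with no low-count filter, 76 with DESeq2, 42 with the likelihood ratio test, and 0 with limma-voom (1847 at an unadjusted p under 0.05), robust shrinkage (1811), the replicate block (1724) and without the 3 libraries (1457). Leaving out 1 library at a time gave log2 fold changes of 0.38 to 0.41 for Il10ra and -0.0281 to 0.0162 for Stat3, 0 to 6 genes called and 0 to 1 members. Stat3 changed sign without WT 5 (0.0162), without cKO 4 (0.0124) and with scaling by library totals alone (0.00657). Il10rb, Jak1, Tyk2 and Socs3 kept their direction and did not pass in any of the 25. The cause of these changes was not tested. The block does not rest on a stated pairing. That 1 of 6 WT animals correlated best with its own number cannot settle whether a pairing exists. The planned legacy fit of edgeR equals the default and was replaced by the newer fit, which called 2 genes; that fit and the covariate were chosen after seeing the data. Socs3 had the lowest counts of the 6 members, at 52 to 103 per library, and a within-genotype variance 3.005 times counting noise.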
